A study of Mus musculus with 12 samples.

Results

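The Hist1 cluster is the largest array of replication-dependent histone genes of the mouse genome, and it was examined here through every peak that overlapped the window from 23.5 to 23.9 Mb of chromosome 13 (build mm9). All peaks with at least 1 base in the window were taken from 11 peak lists, which gave 383 peaks of the 353805 in the lists. The window was chosen by the width of its H3K27ac regions and the number of its open sites in these same lists, so widths, counts and cover of these peaks are descriptions of the locus and are not tested against the rest of the genome. The tests given compare H3K4me1 between parts of the window, within libraries. No peak crossed an edge of the window. The nearest peak inside the left edge lay 3.139 kb from it and the nearest outside 4.967 kb, and at the right edge the distances were 4.889 kb and 56.673 kb.

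The libraries came from C57BL/6 mouse embryos at embryonic day 14.5, with no genetic change or treatment in any group. Chromatin immunoprecipitation (ChIP-seq) was performed on whole fetal liver for H3K27ac (2 libraries), H3K4me3 (2), H3K4me2 (2) and H3K4me1 (3), and open chromatin was mapped by ATAC-seq in proerythroblasts (2), early red cell precursors. A 12th sample, input DNA, had no peak list among the files analysed. Whole fetal liver mixes red cell precursors with hepatocytes and other cells, so histone marks and open sites were read from different cell populations. The labels do not say whether replicates came from separate litters, and the spread between them may be technical. The files hold peaks and no read counts, so the depth is unknown. As a stand-in, the ChIP lists held 14027 to 52387 peaks, and the ATAC lists held 18441 (replicate 1) and 28980 (replicate 2).

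Replication-dependent histone genes are short genes without introns that are transcribed mainly in S phase, when new DNA must be packed into nucleosomes. They encode the core histones H2A, H2B, H3 and H4 and the linker histone H1. Many of the genes sit close together, and H2A and H2B genes are often arranged head to head with a shared promoter region. H3K4me3 typically marks active promoters, H3K4me1 enhancers and the flanks of promoters, H3K4me2 both, and H3K27ac active promoters and enhancers. Fetal liver at this stage is the main site of red cell production and holds many dividing cells.

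RefSeq (GRCm38.p6) lists 56 genes on chromosome 13 whose symbol or synonym begins with Hist1h. The largest run of them in gene order, with at most 2 other genes between neighbours and 5 other genes in all, goes from H4c8 to H1f1. It holds 29 of the Hist1h genes: 5 for H1, 5 for H2A, 6 for H2B, 7 for H3 and 6 for H4. That annotation uses another build than the peak files, so no gene was placed on a peak, and which of these genes lie under which peak was not determined. The RefSeq promoter table held 27 windows for 26 of the 29 genes, each from 250 bases before to 50 bases after the start.

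Promoters of 1 gene each for H1, H3 and H4 are printed to show the regulatory sequence such genes carry, together with the bases between the starts of the 2 H2A/H2B pairs that lie head to head with at most 250 bases between starts. H1f1 (Hist1h1a, plus strand), H3c2 (Hist1h3b, plus strand) and H4c1 (Hist1h4a, minus strand) are given as the 150 bases before the start, 5′ to 3′ on the gene's strand. The pairs are given on the plus strand from the start of the left gene to the start of the right gene, 179 bases for H2ac8 and H2bc8 (Hist1h2ae and Hist1h2bg) and 173 bases for H2bc7 and H2ac7 (Hist1h2bf and Hist1h2ad). Capitals mark, on either strand, the letters TATAAA (the TATA box), CCAAT (the CCAAT box) and ATTTGCAT (the octamer).
H1f1: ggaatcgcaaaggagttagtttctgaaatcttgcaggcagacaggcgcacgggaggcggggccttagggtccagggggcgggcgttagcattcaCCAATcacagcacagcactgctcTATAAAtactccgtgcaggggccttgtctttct
H3c2: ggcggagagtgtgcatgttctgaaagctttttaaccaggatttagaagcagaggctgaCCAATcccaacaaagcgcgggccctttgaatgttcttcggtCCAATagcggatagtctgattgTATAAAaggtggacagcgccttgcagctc
H4c1: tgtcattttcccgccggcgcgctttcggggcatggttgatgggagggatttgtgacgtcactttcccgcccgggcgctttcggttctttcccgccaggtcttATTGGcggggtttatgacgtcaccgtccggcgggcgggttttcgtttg
H2ac8 and H2bc8: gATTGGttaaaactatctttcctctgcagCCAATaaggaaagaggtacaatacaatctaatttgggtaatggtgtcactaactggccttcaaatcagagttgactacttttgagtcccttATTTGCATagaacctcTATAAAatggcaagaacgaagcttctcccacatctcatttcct
H2bc7 and H2ac7: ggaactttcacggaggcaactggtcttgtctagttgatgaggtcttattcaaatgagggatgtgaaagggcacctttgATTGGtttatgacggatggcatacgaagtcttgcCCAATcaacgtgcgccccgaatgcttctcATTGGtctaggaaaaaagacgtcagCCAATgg

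H3c2 carried a TATAAA just upstream of the start and 2 copies of CCAAT before it, and H1f1 carried 1 of each. The H2ac8/H2bc8 stretch had a single ATTTGCAT beside a single TATAAA near the H2bc8 start and 2 CCAAT near the H2ac8 start. The H2bc7/H2ac7 stretch held 4 CCAAT and neither of the other words in these letters. Across the 27 promoter windows, searched on both strands, CCAAT was found in 24 (88.9%), against 37.4% of the 32851 promoter windows of all genes. TATAAA was found in 15 (55.6%) against 13.6%. ATTTGCAT was found in 6 (22.2%) against 1.74%, and these were 3 of 5 H2A and 3 of 6 H2B windows. AAACACA, the letters of a box known from H1 promoters, was found in 5 (18.5%) against 7.18%, 4 of them among the 5 H1 windows. No word contains another, TATAAA and AAACACA can overlap at their ends, a match is not a bound site, and windows of a head-to-head pair share bases.

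All 5 assays covered far more of the window than of the rest of the genome. Percentages below are of the 400 kb of the window, and the comparison is the percentage of the span of the remaining genome covered by the same list. H3K27ac peaks covered 44.6% and 43.1% of the window in replicates 1 and 2, against 2.52% and 2.07% elsewhere. H3K4me3 covered 28.2% and 33.5%, against 1.00% and 1.30%. H3K4me2 covered 51.1% and 55.6%, against 3.30% and 3.58%. Dividing the window's percentage by that of the rest gave 27.0 ± 1.70 (SD, n = 2) for H3K4me3, the highest ratio of the 5 assays, and 14.0 ± 1.29 (SD, n = 3) for H3K4me1, the lowest among the histone marks.

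H3K4me1 covered 64.3%, 54.2% and 57.9% of the window in replicates 1, 2 and 3, against 5.08%, 3.55% and 4.11% elsewhere. ATAC peaks covered 4.08% and 6.36%, against 0.377% and 0.553%. When the genome was laid out in tiles of 400 kb on the same grid, the window ranked first or second by covered bases in all 11 lists. By number of peaks it ranked first in both ATAC lists, first and second in the H3K4me3 lists, and between 12 and 264 in the lists of the other marks. The map of all peaks shows 2 blocks of near-continuous H3K27ac, in which H3K4me3 was broken into separate regions, and an empty stretch between them.

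**Figure D1:**
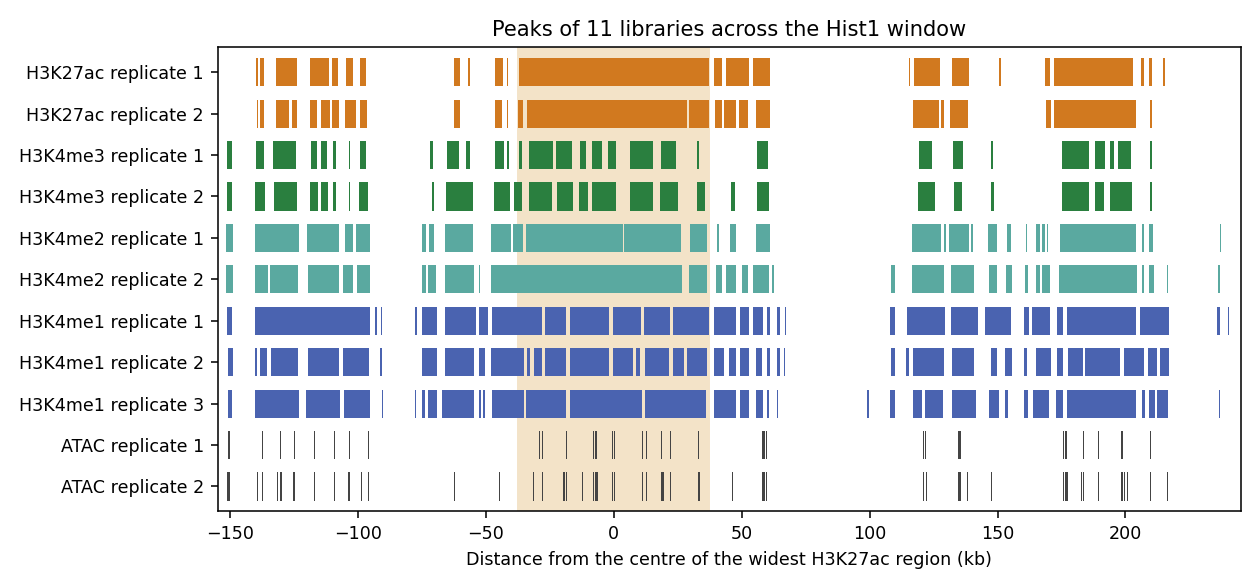
Peaks of the 11 libraries (rows) drawn to scale across the 400 kb window; the x axis is the distance in kb from the centre of the widest H3K27ac region, which is shaded. H3K27ac is close to unbroken over the shaded 74.472 kb, H3K4me3 is split into separate regions there, and no library has a peak over a stretch of 31.652 kb to its right.

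Within a mark the libraries drew much the same regions. A consensus region here is a stretch of touching or overlapping peaks that holds at least 1 peak of every library of the mark. There were 19 for H3K27ac, 27 for H3K4me3, 25 for H3K4me2, 22 for H3K4me1 and 42 for ATAC. Exactly 1 peak per library made up 15 of the 19 H3K27ac regions, 23 of the 27 H3K4me3 regions and 12 of the 22 H3K4me1 regions. Median distances between the libraries' outermost edges of the same region were 178 bp for H3K27ac, 239.5 bp for H3K4me3, 151.5 bp for H3K4me2 and 305.5 bp for H3K4me1. Both measures run over 3 libraries for H3K4me1 and 2 for the other marks, so they are stricter for H3K4me1 and do not rank the marks.

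The marks were also stacked on the same bases. H3K4me2 covered 100% of the bases of the consensus H3K4me3 regions, and H3K27ac covered 84.9% of them. In the rest of the genome the 2 H3K4me2 libraries covered 99.5% and 99.0% of the H3K4me3 bases, so that cover is not particular to the window. The 2 H3K27ac libraries covered 84.7% and 83.7% of the H3K4me3 bases in the window and 65.0% and 59.7% elsewhere. Of the consensus H3K27ac bases, 63.4% lay under H3K4me3, 92.2% under H3K4me2 and 95.4% under H3K4me1. All 4 marks overlapped on 109.937 kb of the window. At the other end, 25 stretches with a total of 119.819 kb (30.0% of the window) had no peak of any library.

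The widest of the empty stretches was chr13:23722171-23753822 (31.652 kb). The next were chr13:23871800-23890443 (18.644 kb), chr13:23564493-23577025 (12.533 kb), chr13:23505983-23514474 (8.492 kb) and chr13:23754712-23762756 (8.045 kb). The first and the last of these 5 are neighbours, with less than 1 kb between them.

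The H3K27ac regions of the locus were led by a single block of 74.472 kb, chr13:23617565-23692036. Replicate 1 called it as 1 peak of 74.445 kb with a fold enrichment of 9.29, and replicate 2 called 3 peaks there, of which the widest was 62.662 kb with a fold of 7.64. Fold enrichment is the authors' value per peak, signal over the expected background. Both were the widest peaks of their whole lists. The next widest region, chr13:23826867-23858964 (32.098 kb), was 1 peak in each library, with folds of 12.8 and 9.75. These were the second and the fourth highest folds of the 28387 and 23733 H3K27ac peaks. The mean fold over libraries was 8.34 ± 1.35 (SD, n = 2) for the first and 11.3 ± 2.18 (SD, n = 2) for the second region.

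The other 6 H3K27ac regions of 5 kb or more were lower. The region chr13:23786344-23793527 (7.18 kb) had a mean fold of 7.83 ± 0.98 (SD, n = 2) and contained 1 H3K4me3 region. The region chr13:23709180-23715965 (6.79 kb) had a mean fold of 6.30 ± 0.83 and also contained 1, and chr13:23771584-23782219 (10.6 kb) had 5.71 ± 0.87 with 1. To the left of the widest block, chr13:23536007-23543777 (7.77 kb) had a mean fold of 4.57 ± 0.52 with 2 H3K4me3 regions. The region chr13:23522752-23530999 (8.25 kb) had 3.33 ± 0.07 with 1.

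The exception was chr13:23697992-23707809 (9.82 kb, mean fold 3.72 ± 0.12), which held no consensus H3K4me3 region and no consensus open site. H3K4me2 covered 39.7% of it and H3K4me1 85.3%. ATAC replicate 2 nevertheless had a peak of fold 9.56 inside it, chr13:23701063-23701561, with none in replicate 1. H3K4me3 replicate 2 had a peak of fold 3.50 there, chr13:23700750-23702181, which contains it, and H3K4me3 replicate 1 had none. That site was singled out after its value was seen: the median fold of the 20 ATAC peaks found only in replicate 2 was 3.84.

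In the widest block H3K4me3 came as 8 separate regions that together covered 66.6% of its bases, and in the next widest as 3 regions over 72.6%. Among the 175 other consensus H3K27ac regions of 20 kb or more that contained H3K4me3, the median share was 21.7% (range 1.66% to 85.1%) and the median number of H3K4me3 regions was 2 (range 1 to 4), in regions with a median width of 26.5 kb. Per 10 kb the H3K4me3 regions numbered 1.07 in the widest block (rank 12 of 177) and 0.935 in the next widest (rank 35), against a median of 0.588 (range 0.154 to 1.75) in the others. Ranked in the same way, the share of the widest block had rank 5 and that of the next widest rank 3. Consensus ATAC sites came at 2.42 per 10 kb in the widest block (rank 2) and at 1.87 in the next widest (rank 14), against a median of 0.919 (range 0 to 2.49) in the others. Width and open sites were the reason the locus was selected, so these ranks only describe it.

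H3K4me1 gaps, the stretches of 200 bp to 10 kb between consecutive H3K4me1 peaks of a library, came at 0.761 ± 0.410 per 10 kb (SD, n = 3) in the widest block, rank 39 of 177. In the next widest block they came at 0.519 ± 0.360, rank 70, against a median of 0.413 (range 0 to 1.55) in the other 175. The difference from the median was smaller than the spread between the 3 libraries in both blocks. The same 3 libraries gave the values of the other 175 regions, so that spread is not the spread of the difference, which was not computed per library.

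**Figure D2:**
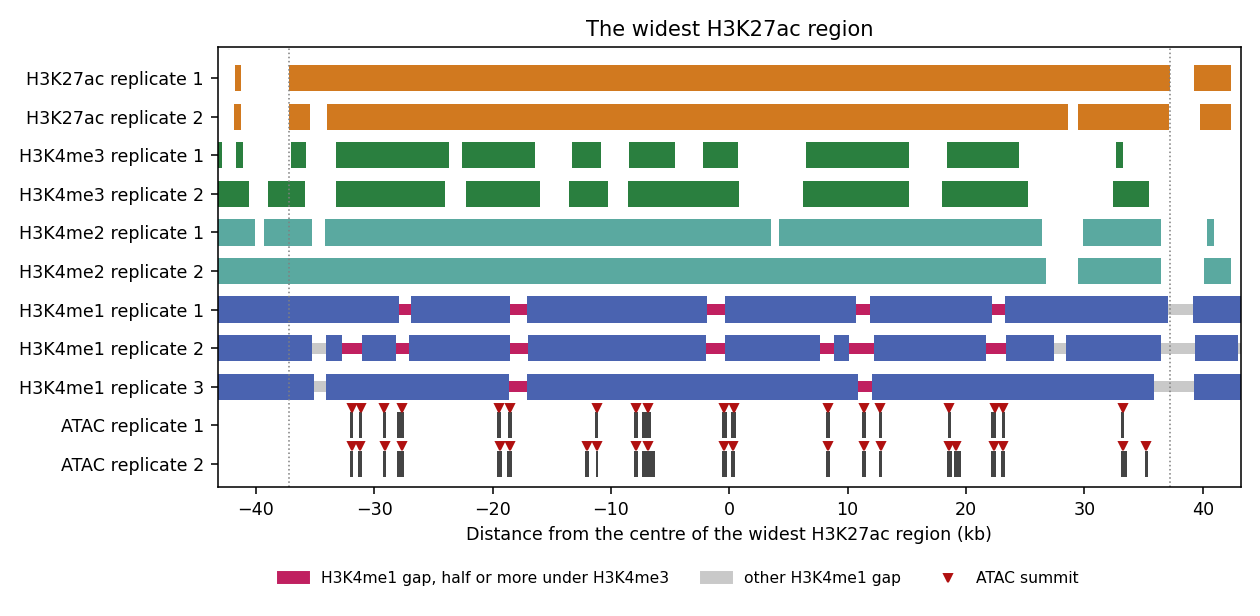
Peaks of each library (rows) in and around the widest H3K27ac region (dotted lines at its ends), with H3K4me1 gaps as thin bars and ATAC summits as triangles; the x axis is the distance in kb from the region's centre. H3K27ac is almost continuous, the H3K4me3 peaks alternate with stretches without H3K4me3, and each ATAC summit lies on an H3K4me3 region.

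Between the 8 H3K4me3 regions of the widest block lay 7 stretches without H3K4me3, from 1.043 to 7.188 kb wide with a median of 2.584 kb. The next widest block had 2 such stretches, of 2.159 and 1.755 kb. The widest block had 18 ATAC summits in replicate 1 and 21 in replicate 2. None of the 9 stretches held a summit in either library. All 42 consensus ATAC sites of the window overlapped H3K4me3, so few summits could have fallen there. H3K4me1 covered 100% of 5 of the 7 stretches of the widest block in all 3 libraries. The leftmost stretch was covered to 100%, 53.6% and 61.0% in replicates 1, 2 and 3, and the rightmost to 100%, 85.4% and 100%.

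The 27 consensus H3K4me3 regions of the window had a median width of 3.897 kb, against 2.021 kb for all 13600 such regions of the genome, and 11 of them were 5 kb or wider. That number was 8 without H3K4me3 replicate 2, and also 8 when only bases covered in both libraries counted. All 27 overlapped H3K4me1 and H3K4me2, 24 overlapped H3K27ac and 22 overlapped a consensus ATAC site. The shares of the 13600 regions with such overlaps are not given here, so these counts are not read as traits of the window. For H3K4me2 the overlap is the rule elsewhere too, where its libraries covered 99.5% and 99.0% of the H3K4me3 bases. The widest was chr13:23830137-23840628 (10.492 kb), with a fold of 6.83 in replicate 1 and 9.75 in replicate 2, and it held 4 open sites. The second, chr13:23589321-23599694 (10.374 kb), had folds of 4.64 and 6.49, and H3K27ac covered 20.6% of it. It was 1 peak in replicate 2 only, and replicate 1 had 2 peaks there, of 4952 and 1545 bp. Width and acetylation thus did not go together in this pair.

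The next 3 by width were chr13:23621572-23631139 (9.57 kb, folds 9.12 and 13.7), chr13:23646241-23655642 (9.40 kb, folds 6.52 and 8.64) and chr13:23521800-23530987 (9.19 kb, folds 8.99 and 12.9). The first 2 of these lie in the widest block, and the second of them was 2 peaks in replicate 1. By fold the order was different: the highest mean was at chr13:23544902-23546303, a region of 1.40 kb with folds of 10.3 in replicate 1 and 15.7 in replicate 2. It was followed by a mean of 11.7 ± 3.92 (SD, n = 2) at chr13:23661031-23670001 in the widest block and 11.5 ± 2.62 at chr13:23773708-23780414. Replicate 2 had the higher fold in all 27 regions, with a median ratio of replicate 1 to replicate 2 of 0.701.

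Within the window, a shift of this kind between libraries was seen for each mark with 2 libraries. H3K27ac replicate 1 was the higher in 18 of 19 regions (median ratio of replicate 1 to replicate 2 of 1.16), and H3K4me2 replicate 1 in 21 of 25 (1.15). Outside the window the median fold of all H3K4me3 peaks went the other way, at 7.05 in replicate 1 and 6.49 in replicate 2. For H3K27ac (2.86 and 2.75) and H3K4me2 (3.67 and 3.20) it went the same way as in the window. In their titles the 3 libraries that were higher in the window carry the same date-like tag and the lower ones other tags. Whether what the tag stands for bears on fold was not tested, so folds are compared within a list below.

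The locus was wide and dense in peaks, but not all its peaks were strong. Each peak's fold was ranked in its own list. The median percentile of the window's peaks was 75.8 ± 0.12 (SD, n = 2) for H3K27ac, 75.4 ± 6.16 (n = 2) for H3K4me2 and 76.2 ± 3.97 (n = 3) for H3K4me1. For H3K4me3 it was 43.7 in replicate 1 and 62.2 in replicate 2. For ATAC it was 42.9 and 28.7, below the middle of the list in both.

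Among H3K4me3 peaks of 5 kb or more the window's median fold was 8.72 in replicate 1 and 10.8 in replicate 2, below the 10.8 and 12.8 of such peaks elsewhere in the same lists. The highest H3K4me3 fold of the window ranked 3797 and 1185 in its list, whereas the highest H3K27ac folds ranked 2 and 4. ATAC peaks of the window were also narrow: their median width was 312 bp and 345.5 bp, against 457 bp and 385 bp elsewhere. How the peak caller set the local background in so densely covered a stretch is not given in the sources used here, and its part in these folds was not tested.

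**Figure D3:**
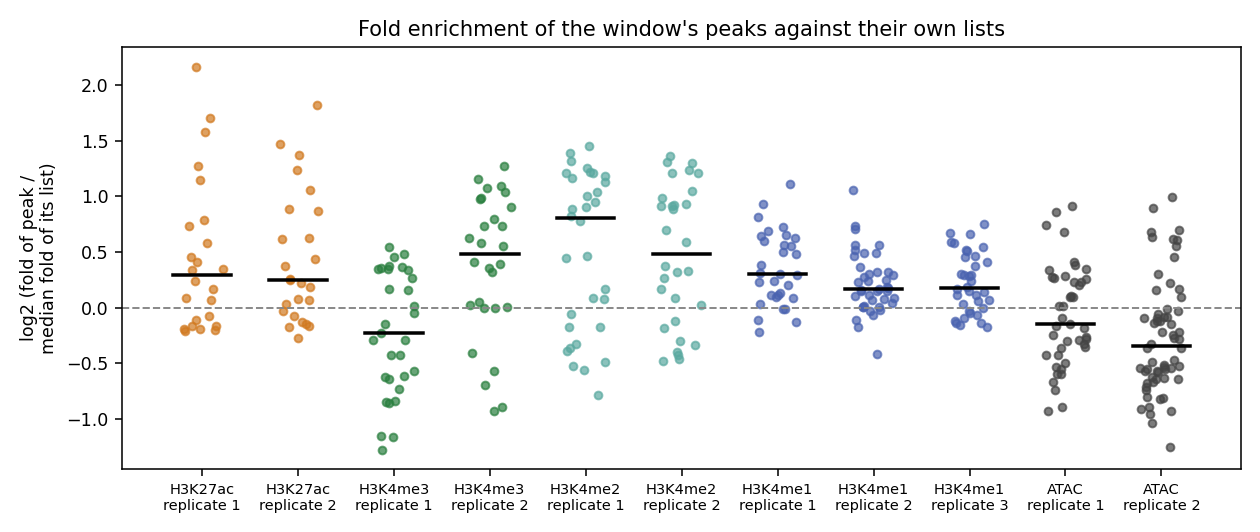
Log2 of each window peak's fold enrichment over the median fold of its own list, by library (x axis); each point is a peak, black bars are medians and the dashed line is the list's median. The bars lie above the line in the H3K27ac, H3K4me2 and H3K4me1 libraries and in H3K4me3 replicate 2, and below it in H3K4me3 replicate 1 and in both ATAC libraries.

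H3K4me1 is usually depleted at the centre of active promoters, and in this window its peaks lay across most of the H3K4me3 bases. These are broad peaks, and their narrowest gaps in the window were 955, 1053 and 916 bp in replicates 1, 2 and 3. A narrower dip in signal would not show in peak cover, so a depletion at promoter centres could not be judged from it. The 3 H3K4me1 libraries covered 93.3%, 85.8% and 94.8% of the bases in consensus H3K4me3 regions, and 49.4%, 38.0% and 38.9% of the other bases of the window. The difference was 49.2 ± 6.12 percentage points (SD, n = 3) and positive in 3 of 3 libraries (exact sign-flip test, two-sided, p = 0.25, the smallest that 3 libraries allow). Inside and outside did not overlap between libraries. The outside includes the 119.819 kb without a peak of any library, so the direction was largely set in advance and the test decides little. In the rest of the genome H3K4me1 covered 84.6%, 62.9% and 76.8% of the H3K4me3 bases, against 5.08%, 3.55% and 4.11% of the span. A difference in this direction is thus not particular to the window. H3K27ac bases without H3K4me3 were covered to 93.7%, 85.5% and 88.7%, which differs from the H3K4me3 bases by less than 1 percentage point in replicates 1 and 2 and by 6.12 in replicate 3.

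When each H3K4me3 region was cut into 3 equal parts, H3K4me1 covered the central part to 92.2%, 82.1% and 93.9% and the outer parts to 93.9%, 87.6% and 95.2%, so the centre was the lower in 3 of 3 libraries. In the 1 kb on either side of the regions the values were 90.8%, 82.4% and 84.7%. The centre exceeded these flanks by 3.46 ± 5.11 percentage points (SD, n = 3), with the same sign in 2 of 3 libraries (exact sign-flip test, two-sided, p = 0.5). Dips narrower than the narrowest gaps of these lists do not enter these values.

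In H3K4me3 regions of 5 kb or more, H3K4me1 covered 91.8%, 83.4% and 94.1% of the bases of the 11 regions in the window, against 83.2%, 70.5% and 77.9% of the 709 elsewhere. The window was the higher in each of the 3 libraries, and the library with the lowest value in the window, replicate 2, was also the lowest elsewhere. In total H3K4me1 covered 257.346, 216.917 and 231.579 kb of the window and H3K4me3 112.91 and 133.975 kb. The groups did not overlap, and their means differed by 112 kb. The H3K4me1 lists were the larger across the genome as well, as the percentages given above for the rest of the genome show, so this difference is not particular to the window and is given without a test.

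The gaps in H3K4me1 were short, and most lay outside H3K4me3. There were 27, 38 and 32 of them in replicates 1, 2 and 3, with median widths of 1644, 1866 and 1977.5 bp and totals of 61.9, 94.3 and 88.6 kb. In addition 3, 2 and 3 stretches without H3K4me1 were longer than 10 kb. H3K4me3 covered 14.6%, 20.2% and 7.80% of their bases, less than the 33.9% of the whole window that it covered. Under H3K4me3 for at least 50% of their bases were 7, 12 and 5 gaps, and each of these lay wholly inside an H3K4me3 region. Of these gaps 6, 11 and 5 contained an ATAC summit, and no other gap contained one. Most summits of the window lay under H3K4me3 (41 of 43 in ATAC replicate 1, and 55 or 57 of 62 in ATAC replicate 2, by H3K4me3 library). Gaps outside it could thus hardly hold one. The count of gaps rested on weak peaks: with peaks of −log10 q of at least 5 it fell to 15, 7 and 14.

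The gaps that all 3 libraries shared numbered 20, with a total of 45.798 kb. Of these, 4 lay wholly under H3K4me3, H3K27ac and H3K4me2 together, and 3 of the 4 held an ATAC summit in both libraries. They were chr13:23665674-23666672 (999 bp) in the widest block, chr13:23713334-23714692 (1359 bp) and chr13:23830417-23831975 (1559 bp) at the left of the widest H3K4me3 region. Consensus ATAC sites covered 33.7%, 68.3% and 85.1% of their bases. The fourth, chr13:23636259-23637665 (1407 bp), held no summit, and an open site covered 11.7% of it.

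The other 16 shared gaps lay outside H3K4me3, where few summits of the window lay, and held no ATAC summit. Their widths, from 867 to 8740 bp with a median of 1770.5 bp, overlapped those of the 4 gaps under H3K4me3, and 6 of the 16 overlapped H3K27ac. The widest 5 of all 20 belong to them: chr13:23505821-23514560 (8740 bp), chr13:23810378-23815013 (4636 bp), chr13:23764830-23769185 (4356 bp), chr13:23715722-23718625 (2904 bp) and chr13:23797092-23799925 (2834 bp). None of these 5 overlapped H3K4me3.

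Open sites of proerythroblasts lay mostly on H3K4me3 in the window. Under H3K4me3 replicates 1 and 2 lay 41 and 41 of the 43 summits of ATAC replicate 1, and 55 and 57 of the 62 of ATAC replicate 2. Of the 42 consensus ATAC sites, 39 (92.9%) overlapped both H3K4me3 and H3K27ac, and the other 3 overlapped H3K4me3 without H3K27ac. Elsewhere 62.0% of 16229 sites overlapped both, and 13.6% overlapped H3K4me3 without H3K27ac. With only peaks of −log10 q of at least 5, 32 of 40 sites of the window overlapped both, and the sites elsewhere were not recomputed. No site among the 42 had H3K27ac without H3K4me3, H3K4me1 or H3K4me2 only, or no mark. Elsewhere these classes made up 13.8%, 6.83% and 3.82% of the sites, and 42 sites are too few to compare the last 2 of them.

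The site with the highest fold was chr13:23654151-23654591, at 12.0 in replicate 1 and 11.9 in replicate 2. It was followed by chr13:23636053-23636422 (11.6 and 8.73), which overlaps the left end of the shared H3K4me1 gap without a summit described above. The next were chr13:23635143-23635578 (10.2 and 9.64), chr13:23775701-23776162 (10.7 and 9.11) and chr13:23864481-23864831 (8.46 and 11.1). The first 3 lie in the widest block, and the last lies on an H3K4me3 region of 0.793 kb near the right end of the window.

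Replicate 1 shared 42 of its 43 peaks (97.7%) with replicate 2, which shared 42 of its 62 (67.7%). Shared summits were 15 bp apart in the median and at most 440 bp, and 34 of 42 lay within 50 bp of each other. In replicate 2 the median fold was 5.45 for shared peaks and 3.84 for the 20 peaks of that library alone. Replicate 2 is the longer list, and the additional sites of the window were mostly among its weaker peaks.

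Neighbouring summits were separated by a median of 5534 bp in replicate 1 and 3231 bp in replicate 2, against 30.7 and 17.0 kb in the rest of the genome. Distances under 1 kb were 8 of 42 (19.0%) and 16 of 61 (26.2%), against 10.2% and 10.6% elsewhere. Distances under 5 kb were 45.2% and 59.0%, against 18.1% and 22.6%. In the widest block the medians were 3069 and 2026 bp. The spacing was uneven: 9 and 10 distances were 10 kb or longer.

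The 3 closest pairs of replicate 1 were 667, 682 and 718 bp apart, and those of replicate 2 were 328, 428 and 471 bp apart. The longest distance was 61.479 kb in replicate 1 and 61.581 kb in replicate 2 and spanned the same interval, from the summit near 23714396 to that near 23775875. The next longest were 40.28 and 33.865 kb in replicate 1 and 33.509 and 21.989 kb in replicate 2. The interval of 40.28 kb of replicate 1 was broken by additional sites in replicate 2, whereas that of 33.865 kb was there in both.

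**Figure D4:**
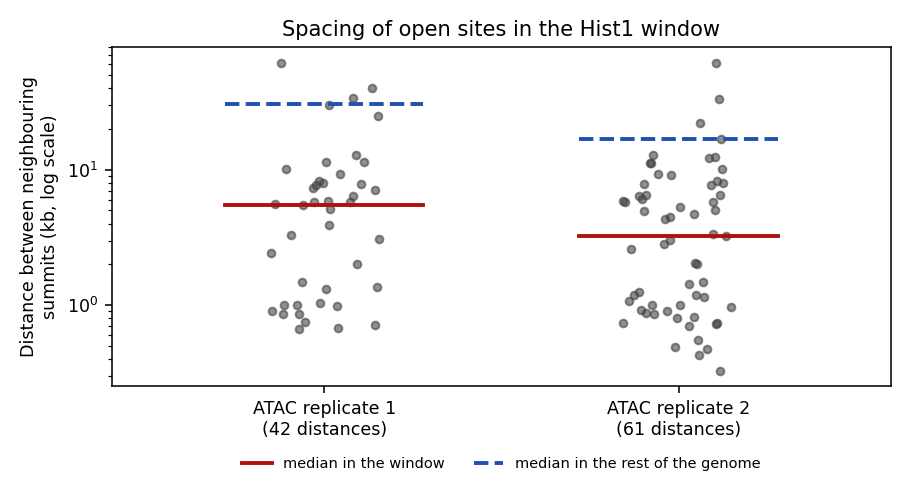
Distances in kb (log scale) between neighbouring ATAC summits of the window, by library; each point is a distance, solid lines are medians in the window and dashed lines medians in the rest of the genome. The points run from under 1 kb to over 60 kb, and both solid lines lie well below the dashed ones.

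Marks extended farther from the open sites of the window than from open sites elsewhere. At the 42 shared summits H3K4me3 was present at 95.2%, and at 3 kb to either side at 42.3 ± 2.53% (SD, n = 2 libraries). At 16971 shared summits elsewhere the values were 75.2 ± 5.35% and 6.66 ± 1.78%. H3K27ac went from 90.5% at the summit to 70.8 ± 2.53% at 3 kb, against 69.5 ± 3.44% and 19.1 ± 1.79% elsewhere. H3K4me2 went from 100% to 79.2 ± 0.84%, against 95.2 ± 0.33% and 27.1 ± 2.44%. Summits closer together than 3 kb share part of these positions. The window was chosen for the width of its H3K27ac regions and the number of its open sites, so these values only describe it.

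H3K4me1 took another course. It lay over 76.2 ± 12.6% (SD, n = 3) of the summits, over 84.5 ± 5.19% of positions at 1 kb, 84.9 ± 4.51% at 2 kb and 79.4 ± 7.75% at 3 kb. Elsewhere it was at 66.1 ± 12.7%, 66.5 ± 7.39%, 46.6 ± 5.55% and 33.8 ± 4.84%. Within each library of the window the summit was lower than the positions at 1 kb, by 5.95, 16.7 and 2.38 percentage points in replicates 1, 2 and 3. Elsewhere the summit was higher by 4.00 and 1.29 percentage points in replicates 1 and 3 and lower by 6.38 in replicate 2. That contrast holds for the distance of 1 kb only. At 0.5 kb the mean was 70.0 ± 10.7% elsewhere and 82.1 ± 10.4% in the window, each above its value at the summit. A mean that is lower at the summit than close beside it is thus not particular to the window. The difference between the window and elsewhere was not tested. By library, H3K4me1 covered 79.3%, 58.5% and 83.3% of the bases of the consensus ATAC sites, with replicate 2 standing apart.

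**Figure D5:**
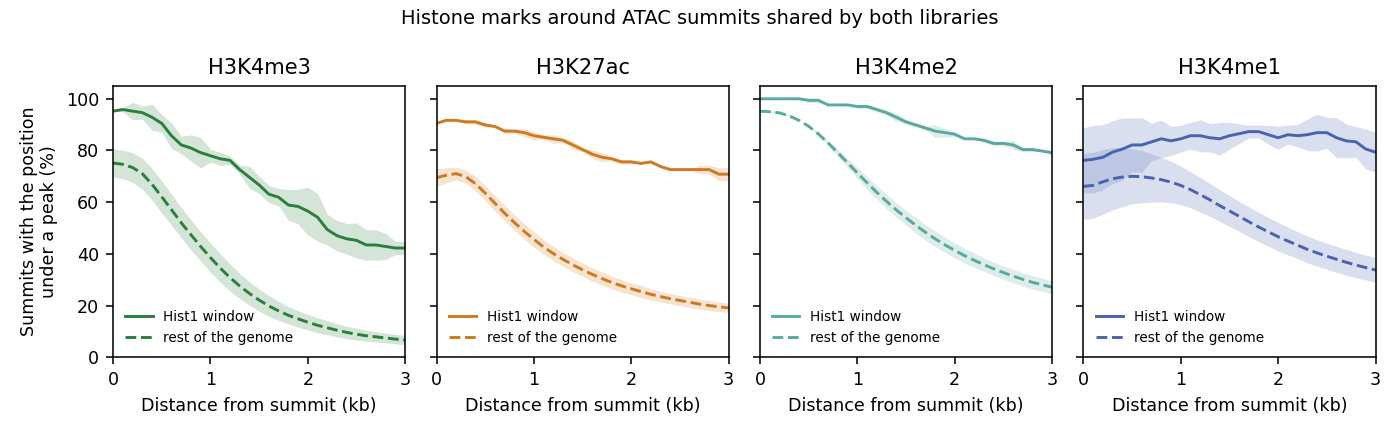
Percentage of shared ATAC summits with a peak of each mark at a given distance (kb, mean of both sides), for the 42 summits of the window (solid) and the 16971 elsewhere (dashed); lines are means over libraries and bands 1 SD. H3K4me3, H3K27ac and H3K4me2 fall off more slowly in the window, and H3K4me1 stays between 76.2% and 87.3%.

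Histone genes of the same class can be much alike in their coding sequence. How reads that match several genes were placed is not given in the sources used here. Its part in the positions and folds of the window's peaks was not tested.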

How the data were processed

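The members are peaks of the Hist1 window in ChIP-seq lists of whole fetal liver and ATAC-seq lists of proerythroblasts, and the window and all lists and rules below were chosen with earlier results of these data known. Per the submitters' processing notes, Trimmomatic 0.32, Bowtie 1.0.1, SAMtools and MACS2 were used with build mm9; no source used here gives MACS2's version, thresholds or control. For H3K27ac and H3K4me2 the protocol and the sample fields name different antibody products, and the ATAC samples carry the ChIP protocol text. The deposited lists are broad peaks for the marks and narrow peaks with summits for ATAC, called per library. The authors' fold enrichment per peak is a ratio of signal to expected background. The deposited −log10 p and −log10 q are the caller's, and the score the authors deposited beside them was not used. The 7 mitochondrial peaks were left out.

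Consensus regions, cover, gaps and spacing were computed with Python 3.11.15, numpy 2.4.6 and pandas 2.3.3, and the interval code was tested on simulated data. A region's fold is the mean over its peaks weighted by width, per library, then the mean ± SD over libraries. Overlap means at least 1 bp. H3K4me1 gaps span 200 bp to 10 kb. The exact sign-flip tests run over libraries, and all other comparisons have no test. A permutation test planned for H3K4me1 against H3K4me3 cover is not used, since the lists differ in size across the genome.

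Named regions follow a rule: H3K27ac regions of 5 kb or more, the 5 widest and the 3 strongest H3K4me3 regions, the 5 strongest ATAC sites, the 3 closest and 3 farthest summit pairs per library, the 5 widest shared gaps and the 5 widest stretches without peaks. Gene names and promoters come from RefSeq tables of GRCm38.p6, searched by symbol, and none of their coordinates were used with the peak files. Alternatives were a −log10 q minimum of 5, a window of 23.6 to 23.87 Mb, other merging, gap and overlap rules, equal ATAC list lengths, a replicate block and leaving out each library.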

Additional observations from a re-analysis of the deposited data

How the results depend on the processing

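The Hist1 results were recomputed under 21 alternatives, and no direction reversed. Of 103 recomputed values, 94 stayed close to the main ones. Close means a count within 1.5 times, a value within 1 SD, or a test with the same direction and side of its threshold. These limits are wide. No test could pass its threshold under any alternative, and the 62 ATAC sites without ATAC replicate 1 count as close to 42. With only peaks of −log10 q of at least 5, H3K27ac cover of the window went from 43.9% to 40.1%, H3K4me1 cover from 58.8% to 44.5% and the mean number of H3K4me1 gaps per library from 32.3 to 12. H3K4me1 replicate 2 lost most there, with 13 of 41 peaks left and a cover of 24.6%. The difference between H3K4me1 and H3K4me3 cover fell from 112 to 58.9 kb with these peaks, and it counts as close since its direction held. Within the window of 23.6 to 23.87 Mb, H3K27ac cover was 54.7% and H3K4me2 cover 58.1% of the shorter span, with 11 H3K27ac and 17 H3K4me3 regions in place of 19 and 27, since fewer bases were counted. The widest H3K27ac region was 62.662 kb when only bases covered in both libraries counted. Leaving out single libraries gave a widest region of 62.662 kb (without H3K27ac replicate 1) to 74.445 kb, and a difference in H3K4me1 cover inside and outside H3K4me3 regions of 42.9 to 51.8 percentage points.

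With a replicate block, in which H3K4me1 replicates 1 and 2 were paired with the H3K4me3 libraries of the same number, the inside minus outside difference was 42.8 ± 6.10 percentage points (exact sign-flip test, n = 2, p = 0.5, the smallest that 2 pairs allow) and the difference in cover 114 ± 43.5 kb. The numbers are not known to pair the libraries: same-numbered libraries carry different tags in their titles, and their deviations from the group means over 400 bins of 1 kb correlated at 0.10 and 0.07. No result could pass a threshold of 0.05 at these numbers of libraries, and the depth of the libraries, which limits how many weak peaks are called, is unknown.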
